A study of Mus musculus with 6 samples.

Results

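Mest, Copg2, Peg10, Sgce, Asb4 and Ppp1r9a belong to a pair of imprinted domains on proximal mouse chromosome 6, and all 6 were measured among 55471 gene identifiers. They were taken by symbol and chosen by their measured counts in the knockout and induced libraries described here, so their values in that comparison are a description and no p-value is attached to them. All 6 passed the filter on low counts that left 15091 genes for testing. RNA came from mouse epiblast stem cells, pluripotent cells like those of the embryo before gastrulation, aggregated into embryoid bodies and differentiated in serum for 2 d. The cells had been kept on irradiated fibroblast feeders with bFGF and Activin A. There are 6 libraries, 3 from a Mixl1 knockout (labelled KO) and 3 in which Mixl1, the gene of a homeobox factor of the primitive streak, was induced. The induced group came from a Mixl1 inducible line and received doxycycline at 1 µg/mL over the last 24 h, which its titles abbreviate as D1Dox. The labels do not state the promoter, the parent line, the number of clones, the altered part of Mixl1 in the knockout, or whether the knockout cells had doxycycline. Line, clone, Mixl1 and possibly the drug therefore differ together between the groups and cannot be told apart. The labels speak of triplicates without naming separate cultures, so the spread and p-values given here measure only the variation between these samples, which may be technical.

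An imprinted gene is transcribed mainly from the chromosome inherited from one parent, under the control of DNA methylation set in the germ line at a few control regions. Mest has such a methylated region at its promoter and is transcribed from the paternal copy, while Copg2, which ends inside the last exon of Mest on the other strand, is expressed from both copies in many tissues and mainly from the maternal copy in some. In the other domain, Peg10 and Sgce start back to back at the methylated region and are both expressed from the paternal copy, whereas Asb4 and Ppp1r9a lie farther away and are expressed mainly from the maternal copy in some tissues. The counts hold no information on alleles, so parent of origin was not measured.

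The groups were far apart across the transcriptome, which sets the scale for these 6 genes. Of 15091 tested genes, 62.6% passed an adjusted p of 0.05 (edgeR quasi-likelihood, Benjamini-Hochberg), and for 67.1% no knockout library reached into the induced range (33.3% with the induced libraries higher and 33.7% with them lower). A fitted difference of at least 2-fold in either direction was found for 16.2% (6.49% upward), and of at least 4-fold upward for 2.53%. Gene reads numbered 17490426 to 21026423 a library. Mixl1, the targeted gene, had 817, 668 and 812 reads in the knockout libraries and 8860, 7720 and 7861 in the induced ones, a 10.9-fold difference in CPM. CPM are read counts scaled to 1000000 reads on tested genes after TMM (trimmed mean of M-values) scaling. Counts over the whole gene do not check the knockout. All 8 epiblast markers listed, among them Pou5f1, Otx2 and Sox2, were detected in both groups, with summed levels of 2073 to 2215 CPM in the knockout and 1881 to 1965 CPM in the induced libraries. All 8 differed between the groups, 5 higher and 3 lower in the induced libraries (edgeR), from Sox2 at 1.86 to Nanog at -1.59 on the log2 scale, and Pou5f1, at -0.68, made up most of the knockout sum.

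The members fell into 3 patterns. Mest and Asb4 were several-fold higher in the induced libraries, Peg10 and Sgce overlapped between the groups, and Ppp1r9a and Copg2 differed by less than 1.5-fold, the first upward and the second downward. The groups overlapped for Peg10 and Sgce and not for the other 4, against 67.1% of all tested genes without overlap. Mest and Asb4 are not in the same domain, and the member nearest to each, Copg2 and Ppp1r9a, differed far less.

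**Figure D1:**
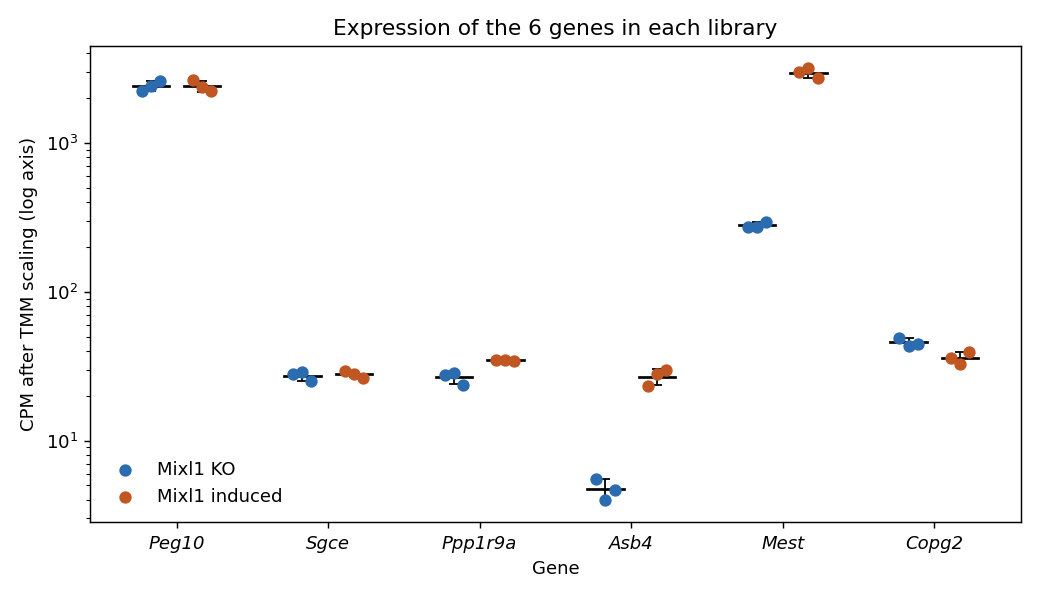
CPM after TMM scaling (log axis) of the 6 genes in the 3 Mixl1 KO (blue) and 3 Mixl1 induced (orange) libraries, with the mean (line) and SD (bar) of each group. Mest and Asb4 sit higher in all 3 induced libraries, and the points of Peg10 and Sgce overlap between groups.

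The stretches before the start sites of the genes with the large differences are shown first, since Mest and Asb4 differ in what surrounds their starts. RefSeq (GRCm38.p6, the assembly behind mm10) gave windows of 300 bases, 250 before to 50 after a start site, for 4 of the 6 genes, in 8 windows. Printed are the 250 bases before 1 start site of each gene on the plus strand, chr6:30737800-30738049 for Mest and chr6:5383136-5383385 for Asb4, with capitals at each copy of TGCCGC or its complement GCGGCA, the letters that ZFP57, a zinc-finger protein that protects imprints, recognises when methylated.
Mest: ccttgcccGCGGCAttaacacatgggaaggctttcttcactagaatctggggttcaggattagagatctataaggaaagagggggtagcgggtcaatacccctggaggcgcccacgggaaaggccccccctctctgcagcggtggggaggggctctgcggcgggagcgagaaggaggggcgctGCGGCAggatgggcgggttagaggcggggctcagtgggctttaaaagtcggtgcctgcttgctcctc
Asb4: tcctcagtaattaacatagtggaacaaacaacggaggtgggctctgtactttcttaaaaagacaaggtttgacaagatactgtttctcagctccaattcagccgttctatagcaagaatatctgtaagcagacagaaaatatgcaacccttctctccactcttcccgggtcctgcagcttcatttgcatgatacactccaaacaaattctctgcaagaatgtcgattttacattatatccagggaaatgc
The Mest window held TGCCGC letters on either strand 2 times and the Copg2 window 1 time, against none in the upstream Mest window, in either Asb4 window or in either Ppp1r9a window. Over 32851 RefSeq windows, 11.6% held at least 1 copy. Over its 300 bases the Mest window had 17 CpG dinucleotides, more than 68.6% of all windows, whereas the window of the first Asb4 start had 6 and that of the second had 8, near the median of 7. The Copg2 window had 25 and the richer of the Ppp1r9a windows 48, more than 98.8% of windows. TAAT or ATTA, the core letters of homeodomain sites, occurred 3 times in each Asb4 window and 2 times in the Mest window. In the first Asb4 window 2 of the 3 overlap, as TAATTA. The upstream Mest window held 1, the Ppp1r9a windows 1 and 0, and the Copg2 window 0. At least 1 copy was present in 58.0% of all windows. These are matches of letters, not sites of binding, and the counts do not tell which start site a read came from.

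Mest (ENSMUSG00000051855.15, chromosome 6, 30723547 to 30748465 of mm10, plus strand) encodes an enzyme-like protein of the alpha/beta hydrolase family that is abundant in embryonic mesoderm and fibroblasts. It had 5580, 4954 and 5585 reads in the knockout libraries and 61856, 56016 and 49677 in the induced libraries. Every induced library lay far above every knockout library. The level was 279.7 ± 12.3 CPM in the knockout and 2965 ± 245 CPM in the induced group (SD, n = 3 each), a 10.6-fold difference, with a fitted log2 fold change of 3.41 (SE 0.060). That value was higher than those of 99.0% of tested genes. On the per-length scale (RPKM, CPM per kilobase of exon), Mest went from rank 609 among 13627 tested protein-coding genes in the knockout to rank 24 in the induced group. Mest is transcribed in fibroblasts, and the cells had been kept on feeder fibroblasts. The 12 feeder markers listed had summed levels of 682.1 to 868.9 CPM in the knockout and 501.6 to 688.4 CPM in the induced libraries, and these ranges overlap. By single gene, 3 were higher (Col1a2, Thy1 and Lum), 6 lower and 3 not called (edgeR), 75.0% called against 62.6% of all tested genes. The lower ones were Col1a1, Postn, Dcn, Prrx1, Twist2 and Pdgfrb. On the log2 scale the lower ones ran from -0.71 for Postn to -2.64 for Dcn. The higher ones ran from 0.70 for Lum to 1.09 for Col1a2. Col1a1, at 309.7 CPM in the knockout and 185.3 CPM in the induced group, gave the largest part of the knockout sum. Macrophage markers, all 6 lower, summed to 54.7 to 82.2 CPM in the knockout and 14.1 to 17.5 CPM in the induced libraries. Muscle markers, 4 lower of 5 tested, summed to 125.6 to 154.9 and 80.7 to 89.0 CPM. Most of both sums was Actc1, at 118.2 and 76.4 CPM, while Myod1 and Myog were too low to test. On the log2 scale Tnnt2 was at -3.31, Ryr2 at -2.36, Des at -0.83 and Actc1 at -0.63, and Myl7 was not called (edgeR). Visceral endoderm markers, 1 lower of 3 tested with Ttr and Hnf4a at 0, summed to 3.16 to 4.58 and 2.56 to 3.22 CPM. Their part in the results was not tested. In bulk RNA, a change in the share of cells that express a gene and a change in RNA per cell cannot be told apart.

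Mest also hosts Mir335, a microRNA gene in one of its introns. That locus had 0 reads in the knockout libraries and 4, 1 and 2 in the induced ones. A poly(A) library does not capture the mature microRNA, so these few reads say nothing of its level.

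Asb4 (ENSMUSG00000042607.15, 5383386 to 5433022, plus strand) encodes an ankyrin-repeat protein with a SOCS box, a substrate adaptor of cullin ubiquitin ligases. It had 113, 72 and 89 reads in the knockout libraries and 482, 488 and 543 in the induced libraries. The lowest induced library exceeded the highest knockout library more than 4-fold in CPM, at 23.2 against 5.51. The group levels were 4.72 ± 0.773 and 26.9 ± 3.31 CPM (SD, n = 3), a 5.70-fold difference (log2 fold change 2.50, SE 0.12), above that of 98.3% of tested genes. The replicate coefficient of variation was 16.4% in the knockout, where counting alone would give 10.5%, so the knockout level of Asb4 is the least precise of the 6.

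Peg10 (ENSMUSG00000092035.8, 4747306 to 4760517, plus strand), a single-copy gene derived from the gag and pol genes of a retrotransposon and needed for the placenta, was among the most abundant transcripts of both groups. Its reads were 45790, 43784 and 49848 in the knockout libraries and 54523, 41379 and 41003 in the induced libraries. The induced libraries fell both above and below the knockout ones. The levels were 2424 ± 195 and 2411 ± 199 CPM (SD, n = 3; log2 fold change -0.01, SE 0.063). Counting error was below 0.5% of either level and the coefficient of variation was 8.06% and 8.25%, so the precision was set by the spread between libraries and not by depth. Its rank per length was 79 of 13627 in both groups, and it took 0.222% to 0.263% of all gene reads.

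Sgce (ENSMUSG00000004631.15, 4674350 to 4747207, minus strand), which encodes epsilon-sarcoglycan of the dystrophin-associated complex, starts 98 bases from Peg10 and is read in the opposite direction. Its reads were 578, 524 and 475 in the knockout and 609, 492 and 485 in the induced libraries. These ranges overlap, as for Peg10. The levels were 27.4 ± 2.07 and 28.0 ± 1.44 CPM (SD, n = 3; log2 fold change 0.03, SE 0.075). Per length, Peg10 exceeded Sgce 126- to 167-fold in the knockout and 134- to 143-fold in the induced libraries, so the ratio of genes that start next to each other overlapped between groups. The sum of trophoblast markers was 314.6 to 391.0 CPM in the knockout and 62.8 to 68.1 CPM in the induced libraries, while the Peg10 ranges overlapped. Nearly all of the knockout sum came from Cdx2 (180.3 CPM) and Tfap2c (145.4 CPM), which are not confined to trophoblast. Of those 11 markers 5 were tested, and 4 were lower and 1, Hand1, higher (edgeR), where 62.6% of all tested genes were called. Prl2c2 and Gcm1, also lower, fell from 3.88 to 0.267 CPM and from 1.15 to 0.0935 CPM. They had 16 and 5 reads in the induced libraries together. Tpbpa, Prl3d1, Ctsq and Synb had no reads. The part of these cells in the Peg10 level was not tested.

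Ppp1r9a (ENSMUSG00000032827.15, 4902917 to 5165661, plus strand) encodes neurabin, an actin-binding protein that targets protein phosphatase 1. It had 567, 516 and 448 reads in the knockout and 718, 607 and 628 in the induced libraries. In CPM every induced library, at 34.3 to 34.7, lay above the knockout range of 23.6 to 28.4. The means were 26.6 ± 2.61 and 34.5 ± 0.211 CPM (SD, n = 3), a 1.30-fold difference (log2 fold change 0.38, SE 0.074). The induced libraries agreed more closely (0.611%) than counting noise alone gives (3.92%), so that SD understates the error.

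Copg2 (ENSMUSG00000025607.15, 30747554 to 30896794, minus strand) encodes a gamma subunit of the coatomer, the coat of vesicles that return proteins from the Golgi to the endoplasmic reticulum. On its own strand it had 1006, 783 and 851 reads in the knockout and 749, 571 and 718 in the induced libraries. All 3 induced libraries, at 32.6 to 39.2 CPM, were below the knockout range of 43.2 to 49.1 CPM. The levels were 45.7 ± 3.06 and 36.0 ± 3.29 CPM (SD, n = 3), so that the knockout exceeded the induced group 1.27-fold (log2 fold change -0.34, SE 0.071). With strands pooled the fitted log2 fold change was -0.16, and the authors' deposited table gives -0.157 with a standard error of 0.0808. For the other members the log2 fold changes in the authors' deposited table are 3.39 for Mest, 2.51 for Asb4, 0.383 for Ppp1r9a, 0.0355 for Sgce and -0.00198 for Peg10, each within 1 SE of the stranded fit.

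Reads were then separated by strand at this locus, to see what pooling changes. The gene bodies of Mest and Copg2 share 912 bases at their ends, on opposite strands. On the Mest strand, exons of Copg2 held 1761, 1533 and 1729 reads in the knockout libraries and 19630, 18019 and 15734 in the induced ones. These reads outnumbered those of Copg2 itself 1.75- to 2.03-fold in the knockout and 21.9- to 31.6-fold in the induced group. When strand was ignored, reads in the shared stretch were dropped as ambiguous, which removed 30.3% to 31.1% of Mest reads in the knockout and 31.4% to 31.9% in the induced libraries and left its log2 fold change at 3.39.

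A small part of the reads on the Mest strand lay in Copg2 exons beyond the end of Mest, as obtained by difference. It came to at most 26, 26 and 37 reads in the knockout libraries and at least 104, 104 and 81 in the induced ones, so the groups did not overlap. Relative to Mest reads it was at most 0.466% to 0.662% in the knockout and at most 0.218% to 0.254% in the induced libraries. The lower bounds in the knockout were 0, 6 and 13 reads, so which group had the larger share is not determined. Pooling the strands added these reads to Copg2. The pooled count minus the count on the Copg2 strand was -1, 6 and 13 in the knockout and 103, 104 and 80 in the induced libraries. No other member had opposite-strand reads above 0.692% of its own.

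**Figure D2:**
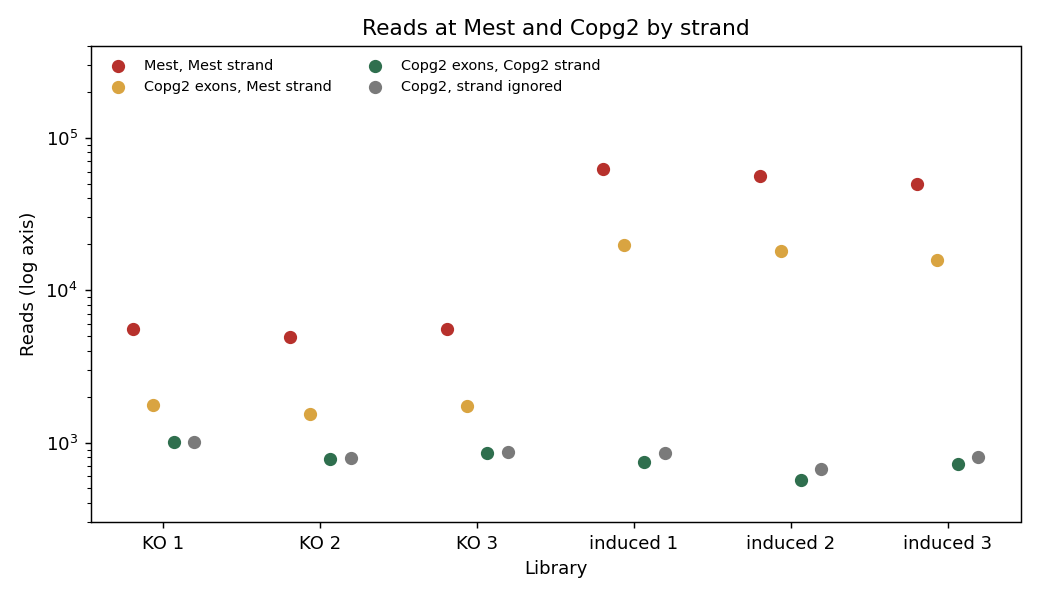
Reads (log axis) in each library for Mest on its own strand (red), exons of Copg2 on the Mest strand (yellow), exons of Copg2 on the Copg2 strand (green), and Copg2 with strand ignored (grey). The red and yellow points are about 10-fold higher in the induced libraries while the green points are slightly lower, and grey exceeds green only in the induced libraries by more than 13 reads.

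Ordered by level per length, the knockout ran Peg10 at 363.5 RPKM, Mest at 70.9, Copg2 at 8.92, Sgce at 2.58, Ppp1r9a at 1.83 and Asb4 at 1.20 RPKM, and no neighbours in this order overlapped between libraries. In the induced group Mest led at 751.6 RPKM, followed by Peg10 at 361.6, Copg2 at 7.03, Asb4 at 6.85, Sgce at 2.64 and Ppp1r9a at 2.38 RPKM. There the libraries of Copg2 and Asb4 overlapped and those of other neighbours did not. Mest per length was 0.196 ± 0.009 times Peg10 in the knockout and 2.08 ± 0.19 times Peg10 in the induced group (SD, n = 3).

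**Figure D3:**
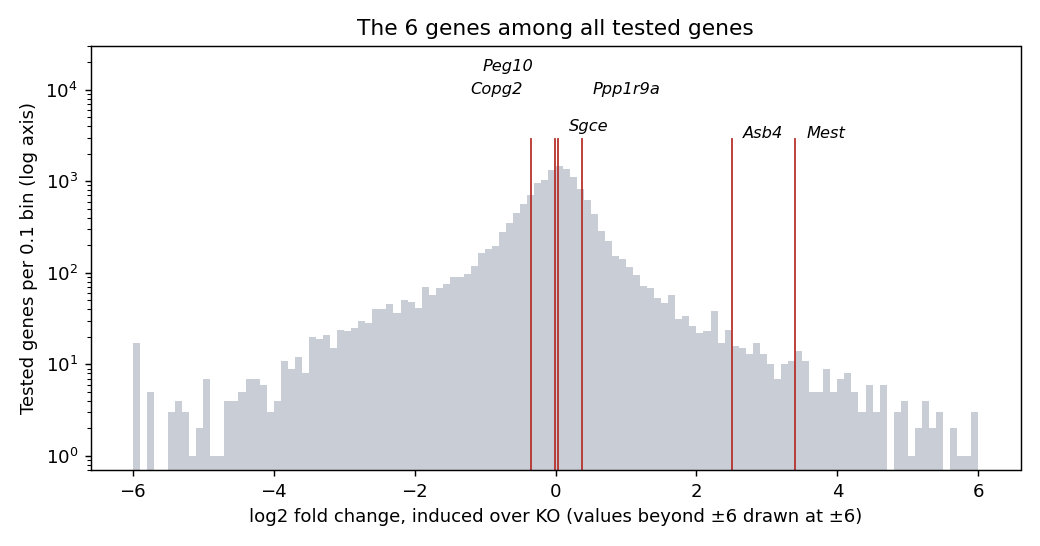
Histogram of fitted log2 fold changes (x axis, induced over KO) of 15091 tested genes in bins of 0.1 (y axis, log scale), with red lines at the 6 genes. Mest (3.41) and Asb4 (2.50) lie in the sparse upper tail and the other 4 between -0.34 and 0.38.

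The neighbours of Peg10 did not move as a block. Of 14 other genes listed around Peg10, 10 were tested, 5 were higher, 2 lower and 3 did not pass, a share of 70.0% against 62.6% of all tested genes (edgeR), and their median log2 fold change was 0.16 against 0.0038 for all genes. Calcr, the calcitonin receptor gene, rose from 0.724 to 3.50 CPM (log2 fold change 2.26). Gng11, a G-protein gamma subunit gene, rose by 0.91 on the log2 scale, while Bet1 and Casd1, the direct neighbour of Sgce among the listed genes, were at -0.07 and 0.14 and did not pass (adjusted p = 0.526 and 0.178, edgeR). Between Ppp1r9a and Asb4, the paraoxonase genes went opposite ways. Pon2 rose from 14.1 ± 0.166 to 30.3 ± 1.67 CPM (SD, n = 3; edgeR adjusted p = 4.46e-11) and Pon3 fell from 2.34 to 1.14 CPM, with Pon1 at 0 reads.

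Beyond Asb4, Pdk4, which encodes a kinase that inhibits pyruvate dehydrogenase, fell from 3.41 to 1.95 CPM. Dync1i1 stood at -0.01 on the log2 scale and did not pass (edgeR adjusted p = 0.991), and Slc25a13 rose by 0.18. Dlx6, a homeobox gene, rose from 0.212 to 0.807 CPM (log2 fold change 1.90, SE 0.45). It had only 3, 6 and 3 reads in the knockout and 13, 19 and 13 in the induced libraries. Col1a2, a collagen gene of the feeder list that ends 206 kb before Peg10, rose from 95.1 to 201.9 CPM, whereas its partner Col1a1 on another chromosome fell from 309.7 to 185.3 CPM. Tfpi2, with 30 reads in the knockout and 18 in the induced libraries together, and Dlx5, with 19 and 52, were too low to test. The zero reads of Pon1, Gngt1 and Tsga13 in 114367388 gene reads allow up to 3 reads, or 0.0262 CPM without TMM scaling, for counting error only.

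No tested listed neighbour of Mest reached its difference. Of 14 other listed genes, 7 were tested, 4 were higher, 2 lower and 1 did not pass (edgeR). The called share was 85.7% against 62.6% of all tested genes, and the median log2 fold change 0.29 against 0.0038. From the centromeric side, Nrf1, a regulator of nuclear genes for mitochondria, rose by 0.31, Ube2h fell by 0.23, Zc3hc1 rose by 0.29 and Klhdc10 by 0.56 on the log2 scale. Cep41, the nearest tested gene upstream of Mest, encodes a centrosomal protein and fell by 0.41, and Mkln1, on the far side of Copg2, was at 0.10 and did not pass (edgeR adjusted p = 0.132). Klf14, an imprinted gene expressed from the maternal copy, had 8 reads in the knockout and 17 in the induced libraries together, and Cpa4, also imprinted, had 2 and 10.

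**Figure D4:**
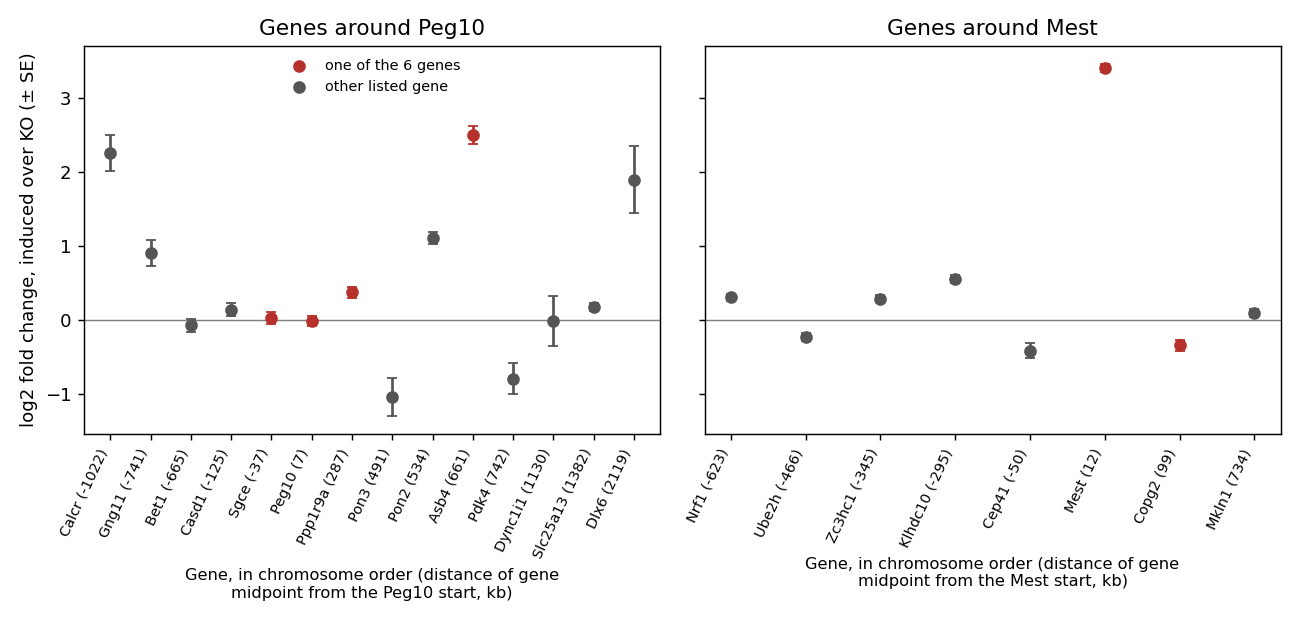
Fitted log2 fold change (y axis, induced over KO, bars are SE) of the tested genes named in the text around Peg10 (left) and Mest (right) in chromosome order, with the distance of the gene midpoint from the Peg10 or Mest start in kb in brackets. Red points are members, and Mest at 3.41 stands among plotted neighbours between -0.41 and 0.56, while Asb4 at 2.50 stands between Pon2 at 1.11 and Pdk4 at -0.79.

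Relatives of the members were read from lists by function. The ASB family with its cullin partners had 10 of 21 genes tested, of which 2 were higher, 3 lower and 5 not called (edgeR), with a median log2 fold change of -0.02. Among them Asb1 fell by 0.35, Asb8 by 0.46 and Elob by 0.33, and Asb6 rose by 0.25 on the log2 scale. No tested ASB gene other than Asb4 had a difference as large as 2-fold. For Copg2, all 8 other coatomer subunits were tested, and 1 was higher, 2 lower and 5 not called (edgeR). Their called share was 37.5%, against the same 62.6%. The Copg2 paralogue Copg1 rose from 211.1 ± 4.81 to 254.5 ± 4.22 CPM (SD, n = 3) while Copz1 fell by 0.60 and Copa by 0.46. Per length, Copg1 stood at 2.16 ± 0.17 times Copg2 in the knockout and 3.31 ± 0.32 times in the induced group.

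Genes that, like Peg10, derive from retrotransposon gag sequences moved in both directions where Peg10 did not. Of 7 tested, 2 were higher, 4 lower and 1 not called (edgeR), 85.7% called against 62.6% of all tested genes. Rtl1, a paternally expressed gene of the Dlk1 domain, rose from 0.241 to 15.5 CPM and Rtl6 from 3.48 to 16.2 CPM. Rtl8b fell from 92.7 to 31.0 CPM and Rtl8c from 58.6 to 19.4 CPM, and since the Rtl8 genes are close copies whose shared reads were dropped, their levels are uncertain. Of the sarcoglycan group only Sgcb and Dag1 were tested. Dag1, the dystroglycan gene, rose by 0.53, and Sgcb was at -0.17 and did not pass (edgeR adjusted p = 0.163). Ppp1r9b, the spinophilin gene and paralogue of Ppp1r9a, rose from 56.1 to 88.7 CPM, Ppp1cc by 0.19 on the log2 scale, and the other catalytic subunit genes did not pass.

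**Figure D5:**
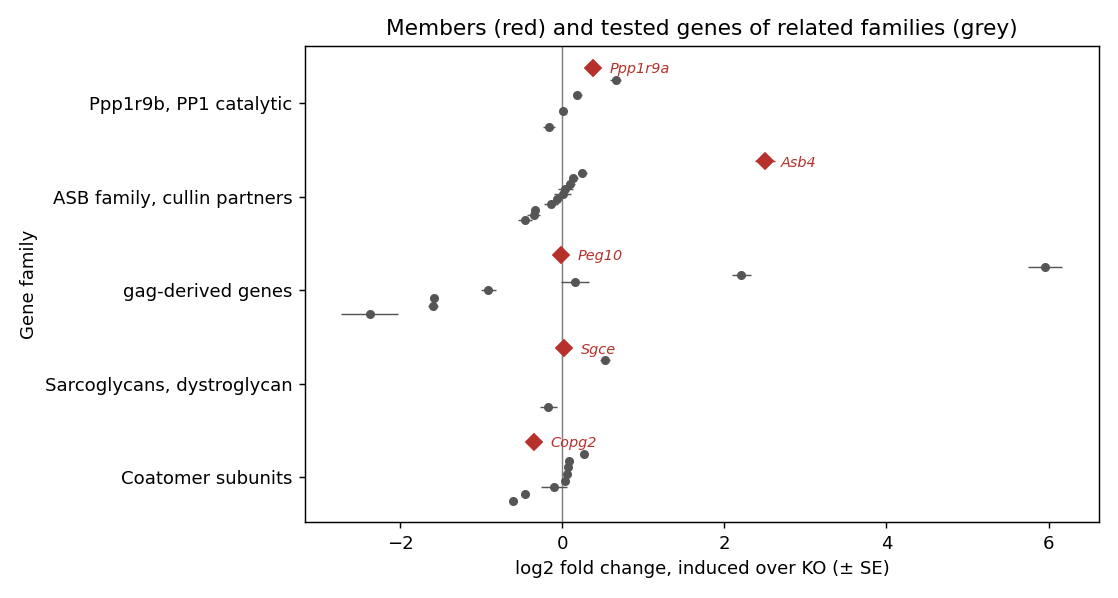
Fitted log2 fold change (x axis, induced over KO, bars are SE) of Copg2, Sgce, Peg10, Asb4 and Ppp1r9a (red diamonds) and of the tested genes of the related family (grey points). Asb4 at 2.50 lies outside the range of its family, and Peg10 at -0.01 lies inside a family that spans -2.37 to 5.96.

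Other imprinted genes went both ways as well. Of 20 tested paternally expressed genes outside these domains, 9 were higher, 6 lower and 5 not called (edgeR). The called share was 75.0%, against 62.6% of all tested genes. Of these 20, 5 differed at least 8-fold, as did 2.70% of all tested genes. Both imprinted lists were chosen with earlier results of these data known, so such shares are a description and not a test of enrichment. Zdbf2 rose from 176.4 to 1425 CPM and Dio3 from 1.32 to 16.2 CPM, while Slc38a4, an amino acid transporter gene, fell from 406.4 to 0.207 CPM. Of 21 tested maternally expressed genes, 5 were higher, 12 lower and 4 not called (edgeR). Called genes made up 81.0%, against the same 62.6%. Here too 5 differed at least 8-fold, or 23.8%. Among them H19, a noncoding RNA gene, was up by 10.13 and Rian, Mirg and Grb10 were at -8.98, -8.66 and -7.70 on the log2 scale. Among imprint and methylation factors, 3 of 11 tested were higher, 2 lower and 6 not called (edgeR). Their called share was 45.5%, below the 62.6% of all tested genes. Zfp57 rose from 102.6 ± 11.1 to 261.1 ± 4.67 CPM (SD, n = 3) and Tet3, which oxidises methylcytosine, by 0.72, while the methyltransferase genes Dnmt3a and Dnmt3b fell by 0.54 and 0.53 on the log2 scale.

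Each member was also compared with 10926 protein-coding genes for the likeness of its profile over the 6 libraries, as the root-mean-square distance between centred log2 CPM values. The nearest to Mest was Mixl1, at 0.0729 against a median of 1.69, followed by Nptx2, a neuronal pentraxin gene, and Penk, the enkephalin precursor gene. The nearest to Asb4 were the zinc-finger factor genes Mecom, at 0.0663, and Zbtb16, and the troponin gene Tnnt3. For Copg2 they were Coq3, Hibch and Nme4, and for Ppp1r9a Coro7, Esrra and Tgfb1i1. Peg10 was nearest to Gadd45b, Sirt6 and Abcc5, and Sgce to Vstm2b, Steap2 and Capn2. With 2 groups, such a distance mostly reflects an equal difference between the groups and shared library scaling. None of these 18 genes lies on chromosome 6.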

How the data were processed

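The authors deposited raw read counts per gene for each of the 6 libraries, with unstranded counts and counts for each strand, and a table of their own comparison. The tools named in the submitters' processing notes are bcl2fastq, STAR and DESeq2, and the build is mm10; neither tool versions nor the gene annotation are given there. Libraries were stranded, per the labels' protocols, and the strand column holding 96.2% to 96.3% of stranded gene reads was used. Rows naming no gene, 15.1% to 17.6% of reads, were left out, and multimapped reads are not in the counts. Per the file headers, the deposited comparison holds a mean normalised signal, log2 fold changes, a Wald score, p-values and a −log10 of the adjusted p, and the authors' log2 fold changes match unstranded counting here.

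Names, positions and exon lengths came from GENCODE M21 (GRCm38). Counts were fitted with edgeR 4.0.16 in R 4.3.3 (filterByExpr, TMM, robust quasi-likelihood, group only, two-sided, threshold 0.05), after the procedure was tested on simulated counts. The SE is the log2 fold change over the square root of F. DESeq2 1.42.0 and limma 3.58.1 served as alternatives. Members and lists were chosen with earlier results of these data known. The shares of a list set beside those of all tested genes are therefore descriptions, and enrichment was not tested. Every tested gene of the domain lists was named except 1 that is counted but not reported here, and from other lists up to 4 called genes with the smallest p. Zim1, listed as paternally expressed, was left out as it is known to be maternal. Copg2os2 and Nesp had no matching symbol. Similar profiles were sought in log2 CPM (prior count 2) among genes whose higher group mean reached 5 CPM, with 3 named for each member. Genes outside these rules (single cell type markers, Sgcb and untested domain genes) were chosen after their values were seen. Replicate numbers were not treated as pairs in the main fit.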

Additional observations from a re-analysis of the deposited data

Results flagged for a closer look

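Reads on the strand opposite to Copg2 belong to a count column that the comparisons do not use, and all 3 induced libraries exceeded the knockout libraries there, with 19630, 18019 and 15734 reads against 1761, 1533 and 1729. They amounted to 31.7%, 32.2% and 31.7% of Mest reads in the induced and 31.6%, 30.9% and 31.0% in the knockout libraries.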

How the results depend on the processing

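The log2 fold changes of Mest, Asb4, Peg10, Sgce and Ppp1r9a moved by less than the spread between replicates under all 14 alternatives run for each, and that of Copg2 under 13. Ignoring strand moved Copg2 from -0.34 to -0.16; the counts by strand show that opposite-strand reads entered the pooled count. Leaving out each library in turn gave 3.35 to 3.46 for Mest, 2.39 to 2.62 for Asb4, -0.41 to -0.28 for Copg2, 0.30 to 0.43 for Ppp1r9a, -0.07 to 0.05 for Peg10 and -0.03 to 0.07 for Sgce, so the sign for Peg10 and Sgce is not determined. Genes called over the whole table numbered 9450, and 7945 to 9932 under 15 alternatives. With the replicate block, 9647 genes were called and Mest stood at 3.40. Same-numbered libraries of the groups correlated at -0.0026, 0.0463 and 0.0398 in their deviations. These values give no sign of pairs but cannot exclude them, since the deviations over all tested genes also hold counting noise. The order of levels per length was the same with the length of the longest transcript, but the ratios between members depend on the length used. With that length Sgce stood at 6.20 RPKM in the knockout against 2.58 with all exons. Mest stood at 1113 RPKM in the induced group against 751.6, while Peg10 stayed at 363.5 in the knockout and 361.6 in the induced group. Depth limits the untested neighbours and, in part, Asb4 in the knockout.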
